A study of Mus musculus with 12 samples.

Results

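Mouse bone-marrow-derived macrophages given 20 U/ml of interferon gamma (IFNγ) were compared with untreated macrophages, over every expressed entry of the deposited expression table and with most weight on the genes that were lower. Of 46729 entries, 11580 had a mean of at least 1 FPKM (sequenced fragments relative to transcript length and library size) over the 4 groups of the study and no value of 0. Each was given a log2 ratio of (FPKM + 1) at 20 U/ml to (FPKM + 1) in untreated cells, a scale that understates differences of low genes. An entry was called lower at a ratio of -1 or less and higher at 1 or more, a 2-fold difference. By this rule 340 entries were lower, 2.94% of those used, and 754 were higher, 6.51%. Together these are 9.45% of the entries, and 10486 lay between.

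Bone marrow cells of C57BL6 mice were grown with interleukin-3 and then with L-929 conditioned medium, a source of colony-stimulating factor 1, for 10 days. All groups share this culture, and treated cells received 0.2, 2 or 20 U/ml of IFNγ during 8 h. For the group at 20 U/ml the label leaves out the volume, which was taken to be the same. There were 3 libraries per group, but the table holds 1 value per group, so no difference has a replicate check, a standard deviation or a p-value, and the depth is unknown.

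IFNγ is made by T and natural killer cells and binds a receptor that signals through the kinases JAK1 and JAK2. The transcription factors activated downstream, among them the IRF factors, switch on genes for antigen presentation and for defence against microbes inside cells. The same cytokine is known to silence parts of the program of resting macrophages, such as scavenger receptors, mediators of tissue repair and cell division.

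Promoter sequences are shown first for 3 gene lists that the results turn on, mitosis, cholesterol synthesis and guanylate-binding proteins. Ccnb2 and Ube2c were lower, Gbp2 and Gbp5 higher, and Hmgcs1 fell just short of the rule. Each is the 250 bases before the RefSeq start of the gene on GRCm38.p6, read in the direction of the gene. In Ccnb2 (chr9:70421555-70421804) and Ube2c (chr2:164769679-164769928) capitals mark CCAAT and TTTGAA, the core of the cell cycle homology region, on either strand. In Hmgcs1 (chr13:119690101-119690350) they mark CACCCCAC, the core of a sterol response element. In Gbp2 (chr3:142620413-142620662) and Gbp5 (chr3:142496684-142496933) they mark GAAANNGAAA, the core of the interferon-stimulated response element, and in Gbp5 also TTCNNNGAA, the gamma-activated site, of which the Gbp2 window holds 0.
Ccnb2: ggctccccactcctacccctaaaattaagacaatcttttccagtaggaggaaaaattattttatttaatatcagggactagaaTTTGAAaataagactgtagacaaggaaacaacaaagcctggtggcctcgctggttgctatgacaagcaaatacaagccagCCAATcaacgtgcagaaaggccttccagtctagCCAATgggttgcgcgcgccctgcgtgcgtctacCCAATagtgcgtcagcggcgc
Ube2c: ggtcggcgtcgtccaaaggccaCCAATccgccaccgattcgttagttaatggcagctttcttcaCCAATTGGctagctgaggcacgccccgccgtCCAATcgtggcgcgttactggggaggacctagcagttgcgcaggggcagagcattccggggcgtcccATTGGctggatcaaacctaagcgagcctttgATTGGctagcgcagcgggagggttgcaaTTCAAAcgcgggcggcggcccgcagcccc
Hmgcs1: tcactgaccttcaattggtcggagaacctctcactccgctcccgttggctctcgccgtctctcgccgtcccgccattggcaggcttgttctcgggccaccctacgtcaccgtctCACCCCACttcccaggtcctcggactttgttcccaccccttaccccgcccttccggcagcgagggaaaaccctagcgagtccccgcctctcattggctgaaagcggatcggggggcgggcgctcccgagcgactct
Gbp2: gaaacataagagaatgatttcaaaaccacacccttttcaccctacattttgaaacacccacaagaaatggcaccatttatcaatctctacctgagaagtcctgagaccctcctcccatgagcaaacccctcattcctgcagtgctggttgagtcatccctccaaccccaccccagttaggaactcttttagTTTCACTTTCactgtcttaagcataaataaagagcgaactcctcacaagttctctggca
Gbp5: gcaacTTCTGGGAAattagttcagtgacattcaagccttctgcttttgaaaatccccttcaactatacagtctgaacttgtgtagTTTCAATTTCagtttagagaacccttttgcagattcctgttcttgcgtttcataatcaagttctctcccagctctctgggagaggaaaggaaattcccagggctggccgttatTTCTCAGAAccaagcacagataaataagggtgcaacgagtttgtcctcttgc

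The motif letters were counted on both strands in every gene with exactly 1 such window, 166 lower, 377 higher and 5589 between the limits. GAAANNGAAA was in 1 lower promoter (0.602%), in 12.5% of the higher and in 2.27% of those between, against 3.11% of all 22862 promoters. TTCNNNGAA was in 3.01% of the lower, 9.55% of the higher and 5.94% of those between, and in 7.23% of all. Of the 3 sets, both interferon motifs were least frequent in the lower one. TTTGAA was in 21.1% of the lower promoters, 13% of the higher, 10.2% of those between and 16.7% of all. The median GC content of the windows was 58.4% in the lower, 55.6% in the higher and 60.4% in the others, and its part in these shares was not tested. TGANTCA, the AP-1 site, was in 8.43%, 6.63% and 3.79% in the same order and in 6.96% of all. CACCCCAC was in 4.22%, 2.65% and 2.27% in that order, in 2.42% of all and in 2 of the 12 cholesterol synthesis promoters with 1 window. CCAAT was in 39.8%, 35.5% and 37.6%, and in 34.7% of all. These are matches of letters in a window and not sites shown to be bound.

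Across all entries the median ratio was 0.01, and the middle 50% of entries lay between -0.27 and 0.30. The lower side was shallow. Of the 340 lower entries, 245 had a ratio between -1 and -1.5, 66 between -1.5 and -2, and 29 were at -2 or less. Of the 754 higher entries, 125 were at 3 or more, a size that 2 lower entries reached. The share of lower entries hardly moved with abundance, at 2.77% for means of 1 to 5 FPKM, 3.16% for 5 to 20, 3.03% for 20 to 100 and 2.44% above 100. The share of higher entries went from 5.04% in the lowest of these classes to 8.79% in the highest. In untreated cells the median was 16.6 FPKM for the lower entries, 7.93 for the higher ones and 12.3 for all entries. This order is partly set by the choice of the sets, as the untreated value is the denominator of the ratio. At the highest dose the order of the lower and higher sets was reversed, which the choice also sets in part, as that value is the numerator.

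**Figure D1:**
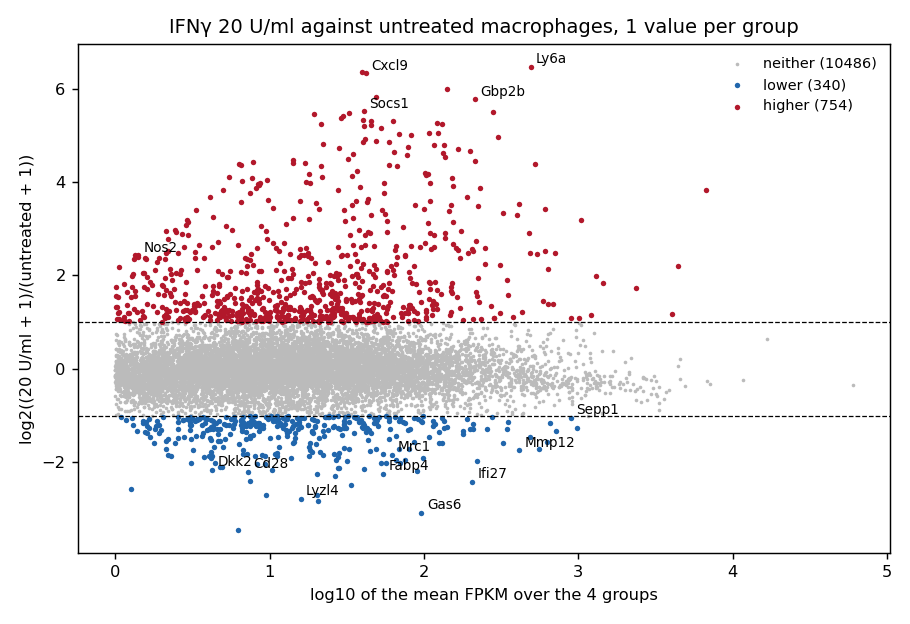
Log2 ratio of 20 U/ml to untreated (vertical) against the log10 of the mean FPKM over the 4 groups (horizontal), 1 point per entry, with the size rule as dashed lines. The 340 lower entries (blue) reach about as far down at every level, while the 754 higher entries (red) extend to a ratio of 6.46 for Ly6a.

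Single genes of at least 200 nt made up 289 of the 340 lower entries. Another 22 merge overlapping genes, whose reads cannot be told apart, and 29 hold short RNAs. Among entries with a matched annotation, 78.9% of the lower and 83.7% of the higher were protein coding, against 87.9% of all, and 9.42%, 5.79% and 1.86% were under 200 nt. Transcript length and GC content of the coding genes were close, with medians of 3046 nt and 49.6% for the lower and 3329 nt and 49.4% for all. The threshold fell in a dense range of ratios. Just inside it were Pcyt2, Gm14493, Rnd2, Gm29562 and Akr1b8 (-1.012 to -1.002), and just outside Dnph1, Mthfd2l, Mid1ip1, Eldr and Bphl (-0.9995 to -0.989).

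The share of higher entries among those called was 68.9% on the deposited scale. It was 57.1% after upper-quartile scaling and 49.6% when the groups were scaled to the same sum, which put the median of all entries at -0.11 and -0.19. The sum of FPKM was 769698 in untreated cells and 1025970, 783701 and 904993 at 0.2, 2 and 20 U/ml, so the column of the smallest dose stood apart. In bulk RNA, fewer cells of one kind and less RNA per cell cannot be told apart. Among macrophage markers, Csf1r, the receptor of colony-stimulating factor 1, was at 349 FPKM untreated and 418 at 20 U/ml. Adgre1 (F4/80) was at 151 and 188, Mpeg1 at 498.8 and 590.1 and Fcgr1 at 32.3 and 348 FPKM. Lower at 20 U/ml were Cd68 (1814 and 1503 FPKM), Cd14 (301 and 256) and the merged entry of Itgam (71.7 and 63.1). Mertk was at 13.5 and 14.01 FPKM. None of the 9 macrophage markers measured in 1 entry was under 1 FPKM in every group, but their sum (3232 and 10829 FPKM) is set by Lyz2, which was listed at 0 in the other 3 groups and at 7449 FPKM at 20 U/ml. Markers of other cells were under 1 FPKM in every group for 12 of 13 T and NK cell genes, 5 of 8 B cell, 7 of 13 neutrophil, 6 of 9 dendritic cell, 10 of 10 mast cell and basophil, 8 of 8 erythroid and 11 of 12 stromal genes. The summed dendritic cell list came to 222 FPKM without IFNγ and 1315 at 20 U/ml, almost all of it the interferon-inducible gene Bst2 (220 and 1267 FPKM). The merged entry of Clec9a, a marker of a dendritic cell subset, and Clec1b was at 1.27, 1.40, 7.16 and 47.1 FPKM over the 4 groups, while Flt3 and Zbtb46 stayed under 1 FPKM. The part of such cells in the higher entries was not tested. The summed neutrophil list was at 45.1 and 58.1 FPKM, while its members Mmp8 and S100a8 went opposite ways (15.9 and 3.69 against 13.3 and 30.4 FPKM).

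The gene with the lowest ratio among single longer genes was Gas6, whose secreted product bridges dying cells to the receptors Axl, Mertk and Tyro3 (chromosome 8, 13465374 to 13494490, GRCm38). Its level was 171 FPKM without IFNγ and 123, 72.2 and 19.3 FPKM at 0.2, 2 and 20 U/ml, a ratio of -3.08. Lyzl4, a lysozyme-like gene (chromosome 9, 121577843 to 121642096), was at 23.7, 27.2, 10.1 and 2.60 FPKM in the same order (-2.78). The lincRNA Gm14461 (chromosome 2, 78237547 to 78302230) was at 13.8, 16.6, 6.48 and 1.29 FPKM (-2.70). Lyzl4 and Gm14461 were not lower at the smallest dose, while Gas6 was below the untreated value at each dose.

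Ifi27, a gene best known as induced by type I interferon (chromosome 12, 103434211 to 103440239), was among the lowest. It was at 284, 333, 155 and 52.6 FPKM (-2.41). Other interferon-inducible genes went the other way, as all 30 entries of the antiviral list were higher. Cd24a, a glycosylated surface antigen (chromosome 10, 43578284 to 43584265), was at 14.6, 9.13, 4.32 and 1.96 FPKM (-2.40). Cnrip1, which binds a cannabinoid receptor (chromosome 11, 17051586 to 17079371), was at 41.9, 41.6, 15.6 and 7.75 FPKM (-2.29). Cbr2, a carbonyl reductase (chromosome 11, 120729489 to 120732114), was at 32.0, 29.8, 13.2 and 5.92 FPKM (-2.25). Cnrip1 and Cbr2 shared a course in which 0.2 U/ml left the value close to untreated and 2 U/ml did not.

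Several of the lowest genes are best known from other cell types. Cd28, the co-stimulatory receptor of T cells (chromosome 1, 60716800 to 60773359), was at 12.7, 8.18, 6.12 and 1.97 FPKM (-2.20). The 13 T and NK cell markers summed to 3.49, 3.41, 2.04 and 1.37 FPKM. Cd2 (2.93, 2.37, 1.33 and 0.613 FPKM) was most of this except at 20 U/ml, and it stepped down with dose like Cd28. The merged entry of Lck did not, at 0.369, 0.588, 0.351 and 0.580 FPKM. Of the defining T cell genes Cd3d was below 0.1 FPKM, and Cd3e, Cd3g and Trac were listed at 0, which can be a failed estimate. The part of such cells in the Cd28 values was not tested. Dkk2, a secreted Wnt antagonist (chromosome 3, 132085292 to 132180304), was at 4.49, 11.0, 1.27 and 0.229 FPKM (-2.16). Penk, the precursor of enkephalins (chromosome 4, 4133531 to 4138819), was at 46.9, 28.9, 23.3 and 12 FPKM (-1.88). Epas1, which encodes the oxygen-regulated factor HIF-2α, was at 5.66 FPKM untreated and 0.662 at 20 U/ml (-2.00). Tox2, a nuclear factor of the HMG-box family, was at 6.46 and 0.747 FPKM (-2.09). With a pseudocount of 5, which damps low values, Dkk2 (-0.86) and Epas1 (-0.91) no longer passed the size rule, nor did Tox2, Itgb3, Shisa9, Tns1 and Mmp27.

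**Figure D2:**
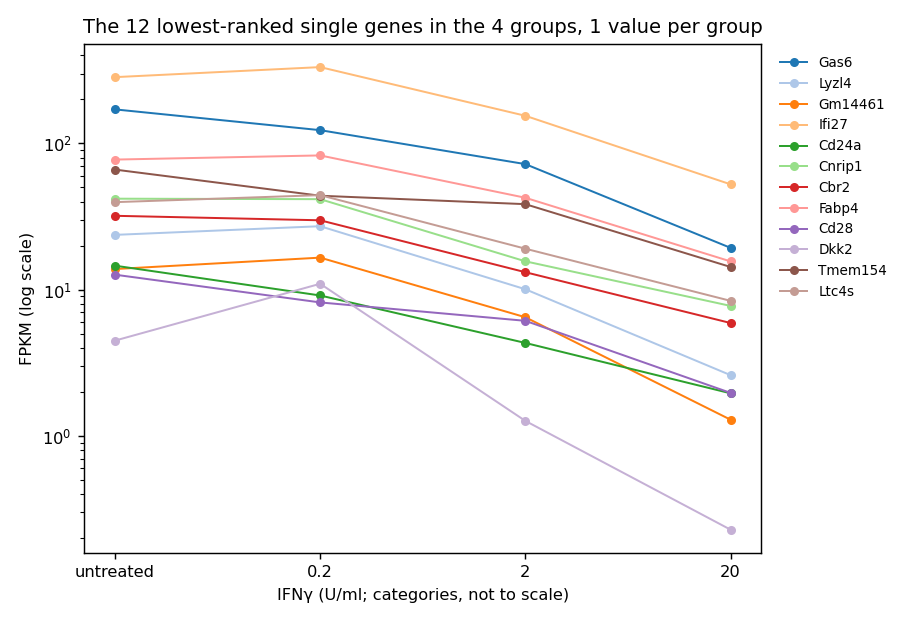
FPKM on a log scale for the 12 single genes with the lowest ratios, in untreated cells and at 0.2, 2 and 20 U/ml IFNγ, 1 value per group and no error bars. In each gene the value at 20 U/ml is the lowest of the 4, and that at 2 U/ml lies below that at 0.2 U/ml, where some genes are above untreated.

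The value at 2 U/ml and that at 0.2 U/ml did not enter the ratio that chose the lower entries. From 0.2 to 2 U/ml, 300 of the 340 lower entries went down (88.2%), with a median log2 ratio of -0.44, against 5583 of all 11580 (48.2%) and a median of 0.02. After upper-quartile scaling, a check added after the data were seen, 294 of the 340 went down, against 5078 of all. Among the 289 single longer genes 260 went down on the deposited scale. Over all entries 725 were at least 2-fold lower at 2 than at 0.2 U/ml and 175 at least 2-fold higher. Over the 4 groups the median level of the lower entries was 16.6, 16.9, 11.7 and 5.53 FPKM. Their median ratio to untreated went from -0.12 over -0.54 to -1.26 with the dose, 3 values that share 1 untreated column. The 754 higher entries had median ratios of 0.28, 0.75 and 1.60. The median of the lower entries was thus near untreated at the smallest dose, on the deposited scale. Single genes moved either way at that dose, such as Ms4a7 (0.92) and Ccl3 (-0.86). All 30 of the lowest single genes were lower at 2 than at 0.2 U/ml, while their low place at 20 U/ml is set by how they were chosen.

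Abundance puts another set of genes in front. Among lower entries the highest untreated level was that of Sepp1, the secreted selenium carrier selenoprotein P, at 1041, 1050, 971 and 504 FPKM (-1.05). Ms4a7, a membrane protein of macrophages, was at 926, 1754, 872 and 388 FPKM (-1.25). Mt1, a zinc-binding metallothionein, was at 844, 903, 520.2 and 377 FPKM (-1.16). In these genes the value at 0.2 U/ml was at or above untreated and the value at 20 U/ml was the lowest of the 4. Serpinb6a, a protease inhibitor, was at 638 untreated and 234 FPKM at 20 U/ml (-1.45). Anxa1, an annexin that limits inflammation, was at 487, 355, 341 and 222 FPKM (-1.13). Igf1, insulin-like growth factor 1, was at 371, 275, 234 and 151 FPKM (-1.29), and was the 1 lower entry among 9 growth factor genes, of which Vegfa (1.15) and Pdgfc (1.04) were higher.

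Genes of the uptake of dying cells went both ways. Of 20 entries 3 were lower and 6 higher, with a median of 0.03. For this and each list below, the shares over all entries were 2.94% lower and 6.51% higher. The 29 lists of resting macrophage functions together hold 485 used entries, of which 47 were lower and 44 higher. Most of the 340 lower entries thus lie outside these lists. Besides Gas6 the lower ones were Stab1, the scavenger receptor stabilin-1 (684, 1173, 433 and 229 FPKM, -1.57), and Itgb3, the integrin beta 3 chain (5.84, 5.98, 2.24 and 0.867 FPKM, -1.87). The bridging protein Mfge8 (-0.84) and the integrin chain Itgb5 (-0.94) did not pass. Axl, the receptor of Gas6, was at 5.76, 7.62, 18.1 and 35.4 FPKM, opposite in direction to its ligand (2.43). Mertk, the other main receptor of this pair in macrophages, was at 13.5, 13.9, 8.64 and 14 FPKM (0.05). The second ligand Pros1 was at 0.46. Timd4, a phosphatidylserine receptor, was at 0.325 and 8.70 FPKM (2.87), and the complement genes C1qa (1.71), C1qb (3.41) and C1qc (1.43) and the scramblase Xkr8 (2.1) were higher too.

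Scavenger receptors and lectins, which recognise sugars and modified lipids, went both ways. Of 20 entries 3 were lower and 3 higher (2.94% and 6.51% over all entries), with a median of -0.01. Mrc1, the mannose receptor, was at 88.5, 81.3, 53.9 and 24 FPKM (-1.84). Clec4d, a C-type lectin that binds fungal and mycobacterial ligands (chromosome 6, 123262111 to 123275265), was at 777, 814, 399 and 238 FPKM (-1.71). Both were near untreated at the smallest dose and lower from 2 U/ml on. Clec7a (dectin-1, 1.27), Clec12a (1.08) and Marco (1.56) were higher. Lgals3, galectin-3, the most abundant member shown here, was at 4145 and 2513 FPKM (-0.72) and did not pass. In the list of alternative activation, the state linked to interleukin-4, 2 of 10 entries were lower, Mrc1 and the transcription factor Egr2 (11.3 and 4.52 FPKM, -1.15), and 2 higher, Tgm2 (2.71) and Il4ra (1.59), with a median of -0.25.

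Receptors that guide migration also went both ways. Of 24 receptors for chemoattractants, purines and lipid mediators, 4 were lower and 7 higher (2.94% and 6.51% over all entries), with a median of 0.27. Cxcr4, the receptor of the bone marrow chemokine Cxcl12 (chromosome 1, 128588199 to 128592293), was at 88.6, 58.6, 41.5 and 21.2 FPKM (-2.01). S1pr1, the sphingosine 1-phosphate receptor used to leave tissues, was at 13.7, 9.56, 7.38 and 2.60 FPKM (-2.03). Gpr34, a lysophosphatidylserine receptor (8.25, 5.31, 2.83 and 1.30 FPKM, -2.01), and Cx3cr1, the fractalkine receptor (21.3, 29.8, 15.5 and 5.16 FPKM, -1.85), completed the lower set. Cxcr4, S1pr1 and Gpr34 stepped down at each dose, and Cx3cr1 from 2 U/ml on. The higher set included the merged entry of the formyl peptide receptors Fpr2 and Fpr3 (3.59) and the nucleotide sugar receptor P2ry14 (2.14).

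Chemokine ligands of resting macrophages and of neutrophil attraction had a median of -0.38, and of -0.04 among entries with a mean of at least 5 FPKM. Of the 12, 4 were lower and 4 higher (2.94% and 6.51% over all entries). Ccl3, a chemokine of inflammation, was at 47.8, 25.9, 22 and 11.7 FPKM (-1.95). Ccl9 was at 181, 133, 114 and 70.1 FPKM (-1.36), and Pf4, platelet factor 4, at 472, 470.2, 250.5 and 194 FPKM (-1.28). Cxcl2, which attracts neutrophils, had 4.73 and 1.03 FPKM (-1.50, and -0.69 with a pseudocount of 5). Against these stood the monocyte attractants Ccl12 (5.05), Ccl7 (2.60) and Ccl2 (1.95) and the scavenger chemokine Cxcl16 (1.86). Ccl4, the close relative of Ccl3, was at 41.5 and 31.1 FPKM (-0.41), so the related genes Ccl3 and Ccl4 did not have the same ratio. Ltc4s, the enzyme that makes leukotriene C4 (chromosome 11, 50236461 to 50238616), was at 39.7, 44.3, 19.1 and 8.39 FPKM (-2.12).

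Extracellular proteases and matrix genes had a median of -0.13, and 4 of the 18 were lower and 2 higher (2.94% and 6.51% over all entries). Mmp12, the macrophage elastase (chromosome 9, 7344381 to 7369499), was at 629, 443, 391 and 187 FPKM (-1.74). Mmp8, a collagenase, was at 15.9, 10.5, 5.78 and 3.69 FPKM (-1.85), and fibronectin (Fn1) at 3.68 and 0.678 FPKM (-1.48). Mmp9 was at 2.26 and 0.552 FPKM (-1.07). With a pseudocount of 5, Fn1 (-0.61) and Mmp9 (-0.39) no longer passed. The collagenase Mmp13 (1.67) and the membrane protease Mmp14 (2.35) were higher, so that Mmp8 and Mmp13, both collagenases, differed in direction. Mmp27, a neighbour of Mmp12 on chromosome 9 (7571396 to 7581885) and not in this list, was at 7.58, 4.62, 2.54 and 1.36 FPKM (-1.86).

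Osteoclast genes, part of a fate that these precursors can also take, had 3 lower and 0 higher members among 14. Their median was 0 to 2 decimals. Over all entries the shares were 2.94% lower and 6.51% higher, which also serve for the lysosomal list below. Atp6v0d2, a proton pump subunit needed for cell fusion (chromosome 4, 19876841 to 19922605), was at 94.6, 65.6, 45.9 and 22.7 FPKM (-2.01). Itgb3 and Mmp9 were the other two, and neither passed with a pseudocount of 5 (-0.89 and -0.39). Ctsk, the collagen-degrading cathepsin K, was at 31.9, 27.9, 20.9 and 15.7 FPKM (-0.98), just short of the rule. The regulator Nfatc1 (0.23) and the receptor Tnfrsf11a (0.50) did not pass, nor did Acp5 (-0.11). Among 27 lysosomal genes and their regulators 2 were lower, Atp6v0d2 and Tfec (19.0, 16.8, 13.7 and 7.61 FPKM, -1.22), a factor of the MiT/TFE family. The proteases Ctsc (3.14) and Ctsh (2.54) were higher, while Ctsl was at 596 and 311 FPKM (-0.94).

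**Figure D3:**
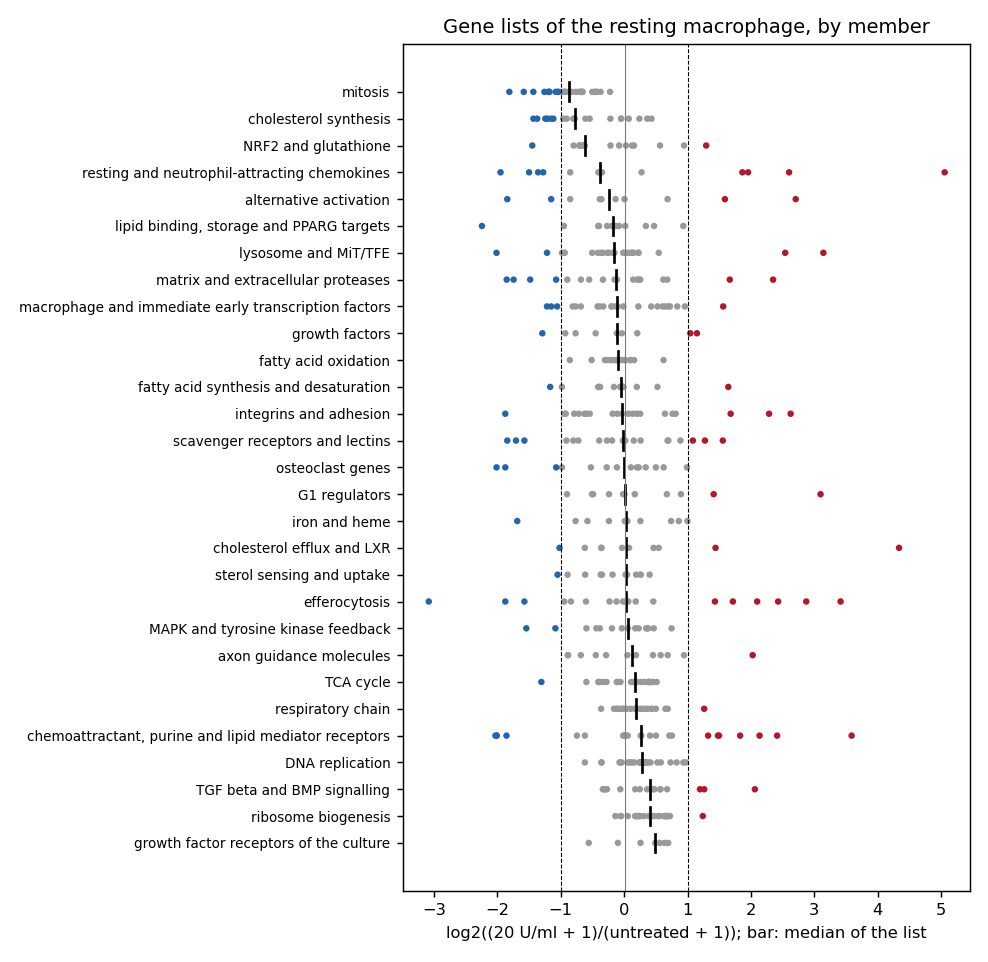
Log2 ratio of 20 U/ml to untreated for each entry of 29 lists of resting macrophage functions, sorted by the median of the list (black bar). Blue points are lower and red points higher by the size rule (dashed lines), and grey points did not pass. Mitosis and cholesterol synthesis lie to the left with no red point, and most other lists hold both colours or neither.

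Mitotic genes had the lowest median of the 29 lists. All 29 entries had a ratio below 0, 10 of them were lower by the rule and 0 higher, and the median was -0.88 against 0.01 for all entries. Mki67, the proliferation antigen, was at 35.4, 34.9, 25.5 and 9.39 FPKM (-1.81). Cenpa, the centromeric histone, was at 159, 159, 131 and 52.4 FPKM (-1.58). Ccnb2, a cyclin of entry into mitosis, was at 88.3, 77.8, 67.4 and 32.1 FPKM (-1.43). In each the value at 20 U/ml stood apart and the doses below were closer to untreated. Ube2c, the ubiquitin-conjugating enzyme of the anaphase-promoting complex, was at 157, 179, 140 and 65.3 FPKM (-1.26). Birc5 (survivin) was at 229, 269, 228 and 101 FPKM (-1.18), and the activator Cdc20 at 53.0, 69.1, 49.6 and 24.6 FPKM (-1.08). Cenpf, Hmmr, Kif23 and Prc1 were the other lower members (-1.19 to -1.04). With a pseudocount of 5, Cenpf (-0.93), Hmmr (-0.87), Kif23, Prc1 and Cdc20 did not pass, and the other 5 lower members did. The kinases Plk1 (-0.92), Cdk1 (-0.50) and Aurkb (-0.22) did not pass.

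Genes of DNA replication did not share this shift. Of 29 entries 0 were lower and 0 higher, 6 had a ratio below 0, and the median was 0.28. Pcna, the sliding clamp, was at 216, 182, 238 and 359 FPKM (0.73). Ccne1, the cyclin of S phase entry, was at 11.9, 10.4, 15.3 and 24.3 FPKM (0.97), and the loading factor Cdc6 at 5.34, 5.51, 7.43 and 10.3 FPKM (0.83). The lowest member was thymidine kinase, Tk1, at 106, 104, 90.8 and 68.7 FPKM (-0.62). Among 11 regulators of the G1 phase the cyclins Ccnd1 (64.7, 108, 119 and 174 FPKM, 1.41) and Ccnd2 (2.47, 7.76, 12.2 and 28.7 FPKM, 3.10) were higher and 0 lower. The inhibitor Cdkn1a (p21) was at 121, 124, 149 and 194 FPKM (0.67), and Myc at 17.4 and 17.5 FPKM (0.01). Under the alternatives tried the mitotic median stayed between -1.11 and -0.71 and the replication median between 0.05 and 0.29.

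The course over the doses is given as a description. From 0.2 to 2 U/ml, 12 of the 29 mitotic entries went down, with a median of 0.09. Among the 10 called lower 8 went down (median -0.31), and among the 19 others 4 did (median 0.13). Over all 29 mitotic entries the median ratio to untreated was -0.12 at 0.2 U/ml and -0.09 at 2 U/ml. CCAAT, whose letters are shown above for Ccnb2 and Ube2c, was in 17 of the 21 mitotic promoters with 1 window (81.0%) and in 13 of 19 replication promoters (68.4%), and in 11 of 12 cholesterol synthesis promoters (91.7%). TTTGAA was in 6 mitotic promoters (28.6%) and in 2 replication promoters (10.5%).

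Cholesterol synthesis had the second lowest median. Of 19 entries 6 were lower, 0 higher and 15 below 0, with a median of -0.78. Msmo1, a sterol methyl oxidase, was at 97.1, 77.1, 85.5 and 42.9 FPKM (-1.16). Acat2, the thiolase at the start of the pathway, was at 12.3, 14.7, 12 and 5.12 FPKM (-1.12). In both genes the values at 0.2 and 2 U/ml were closer to untreated than that at 20 U/ml. Idi1 (-1.37), Cyp51 (-1.24) and Sqle (-1.22) were lower as well. Hmgcs1, an early enzyme of the pathway whose promoter is shown above, was at 43.0, 37.4, 33.0 and 21.6 FPKM (-0.96) and did not pass. From 0.2 to 2 U/ml the list had a median of -0.02. With a pseudocount of 5, Cyp51 (-0.93) and Acat2 (-0.77) no longer passed.

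**Figure D4:**
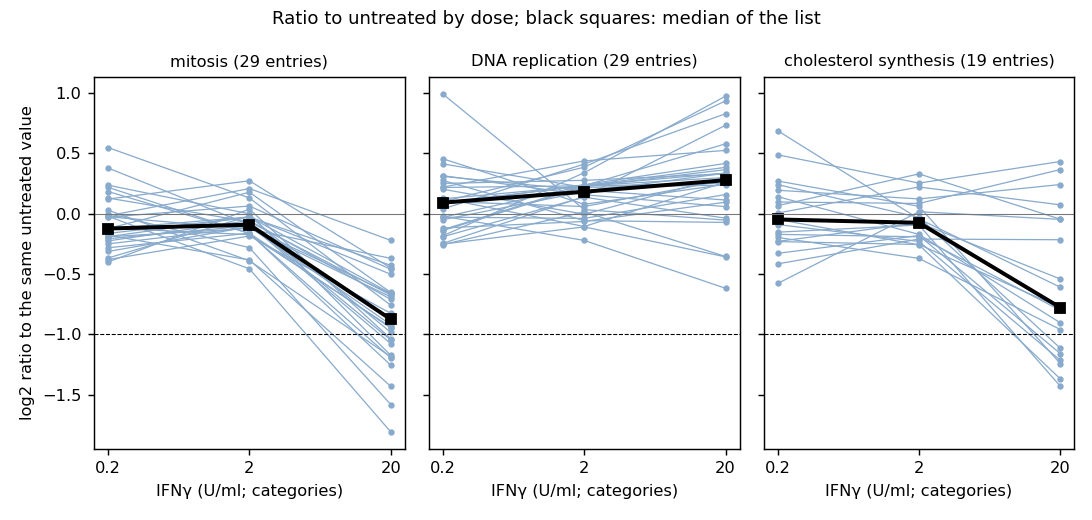
Log2 ratio to untreated at 0.2, 2 and 20 U/ml for the entries of the mitosis, DNA replication and cholesterol synthesis lists (blue lines), with the list median (black squares). All points share 1 untreated value per entry. Mitosis and cholesterol synthesis medians stay near 0 up to 2 U/ml and are at -0.88 and -0.78 at 20 U/ml, while the replication median is at 0.28.

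Related lipid lists showed single genes rather than a shared shift. Among 13 genes of sterol sensing and uptake 1 was lower, Insig1, the sterol-regulated retention protein (43.6, 44.6, 38.7 and 20.5 FPKM, -1.05). The regulator Srebf2 was at 23.1 and 14.7 FPKM (-0.61). Fatty acid synthesis and desaturation had 1 lower entry of 15, the desaturase Fads2 (8.18 and 3.09 FPKM, -1.17), and 1 higher, the acyl-CoA ligase Acsl1 (1.64), with Fasn at -0.05. Fabp4, the adipocyte-type fatty acid-binding protein, was at 77.6, 82.8, 42.5 and 15.6 FPKM (-2.24) and was the 1 lower entry of 13 genes of lipid binding and storage. Its regulator Pparg was at 18.7 and 16.9 FPKM (-0.13). Fabp5 was at 346 and 179 FPKM (-0.95), and Cd36, a shared target of that regulator, at 278 and 282 FPKM (0.02). Apoe, the lipoprotein of sterol export, was at 68.2, 63.4, 40.5 and 33.2 FPKM (-1.02), just past the rule. The oxysterol-producing enzyme Ch25h was at 2.66, 3.07, 6.95 and 73.0 FPKM (4.34), opposite to the sterol synthesis genes. Insig1 (-0.93), Fads2 (-0.70) and Apoe (-0.94) did not pass with a pseudocount of 5. Fatty acid oxidation had 0 of 17 entries past the rule in either direction.

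Antioxidant genes, many of them controlled by NRF2, were mostly below 0 and mostly short of the rule. Of 18 entries 12 were below 0, 1 was lower and 1 higher, and the median was -0.62. Gstm1, a glutathione transferase, was at 171, 132, 68.3 and 62.0 FPKM (-1.45). Catalase (Cat) was at 87.0 and 49.6 FPKM (-0.80), the glutathione-making enzyme Gclc at 15.3 and 9.03 FPKM (-0.70) and Txnrd1 at 44.4 and 27.3 FPKM (-0.68). The mitochondrial superoxide dismutase Sod2 was higher (1.29), and its cytosolic counterpart Sod1 was at -0.62. Among 11 iron genes the exporter Slc40a1 (ferroportin) was at 46.4, 30.4, 30.8 and 13.7 FPKM (-1.69), and the others did not pass.

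Energy metabolism and protein synthesis lists had shares of calls near those of all entries (2.94% lower and 6.51% higher). In the TCA list of 23 entries Idh1, a cytosolic dehydrogenase that makes NADPH, was lower (107, 87.2, 80.3 and 42.9 FPKM, -1.30), and the median was 0.16. The respiratory chain had 0 of 22 entries lower and 1 higher, Cycs (1.26). Ribosome biogenesis had 0 of 26 lower and 1 higher, Nop2 (1.24), with a median of 0.41. Signalling lists and transcription factors were uneven, with lower entries in some lists and 0 in others. Among 15 feedback genes of MAP kinases the phosphatases Dusp2 (7.23, 6.01, 3.93 and 1.82 FPKM, -1.54) and Dusp4 (4.60 and 1.64 FPKM, -1.08) were lower. Of 24 transcription factors Tfec, Egr2 and Bhlhe40 (14.9 and 6.64 FPKM, -1.06) were lower and Batf3 (1.56) higher. Dusp2, Dusp4, Egr2, Tfec and Bhlhe40 did not pass with a pseudocount of 5. The TGF-beta and BMP list had 0 of 16 lower and 3 higher, led by the receptor Acvrl1 (2.06). Of 7 receptor and ligand genes of blood cell growth factors, which include factors not named for the culture, 0 passed the rule.

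The higher side held the interferon response itself. All 8 guanylate-binding protein entries were higher (median 4.83), as were 13 of 14 immunity-related GTPases (4.09). The same held for all 30 antiviral entries (3.04) and all 8 MHC class II entries (3.83). These counts cover entries that passed the filter on low values, whose mean includes the treated groups. An induced gene can thus pass through its treated values alone. In the MHC class II list 3 of the 11 genes were left out as too low, and with no filter its median was 3.19. None of the 132 used entries in the 9 lists of IFNγ responses was lower. In the immunoproteasome list the subunits that replace the constitutive ones were higher, with Psmb8 at 211, 605, 819 and 1176 FPKM (2.47). The constitutive subunits Psmb5 (in a merged entry, 0.32), Psmb6 (0.00) and Psmb7 (0.41) were not. In these 8 entries the calls thus followed the type of subunit. The activator subunits Psme1 (2.15) and Psme2 (2.21) were higher as well.

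The PARP, TRIM and Schlafen list had a median of 1.58, and 15 of its 18 members passed the rule upward and 0 downward. Slfn1, of a family that restrains cell growth, was at 0.333, 0.617, 2.39 and 27.9 FPKM (4.44). Parp14, an ADP-ribosyltransferase, was at 10.0, 18.1, 31.0 and 59.1 FPKM (2.45). Its partners Parp9 (2.41) and Dtx3l (2.40), which act as a complex, had almost the same ratio. Trim30a was at 16.9, 23.1, 35.9 and 72.1 FPKM (2.03), while Trim25 (0.09), Trim56 (0.23) and Trim26 (0.62) did not pass. GAAANNGAAA was in 8 of the 20 antiviral promoters with 1 window (40.0%).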

How the data were processed

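RNA was sequenced from 12 libraries of mouse bone-marrow-derived macrophages in 4 groups, and the 3 untreated and 3 libraries at 20 U/ml form the comparison. Per the submitters' processing notes, the tools named are TopHat2 2.1.1, Cuffdiff 2.1.1 and Cufflinks 2.1.1, and the build is mm10. The table deposited by the authors gives 1 FPKM value per entry and group, per the file headers. The untreated column names no unit and was read as FPKM from its range. The sources used here do not say whether a value pools the 3 libraries. The second table, a Cuffdiff comparison that names no dose, was not used here.

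Log2 ratios were computed with a pseudocount of 1 in Python 3.11.15 with pandas 2.3.3 and numpy 2.4.6, tested on simulated data and drawn with matplotlib 3.10.9. An exact 0 can be a failed estimate, so the 272 entries at 0 in a group were left out. Among them 73 were at 0 at 20 U/ml and above 0 in untreated cells. The members and the 38 gene lists were chosen with earlier results of these data known. Symbols found in several entries were left out of lists, and a merged entry counted once. Named genes were, among single genes of at least 2 FPKM in the higher of the groups compared and not known to be under 200 nt, the 30 lowest and 15 highest ratios, the 15 lower entries of highest untreated level, up to 6 lowest and 2 highest members of each list, known IFNγ targets and 5 entries on each side of the threshold. Other names were chosen after their values were seen. Some genes taken by this rule are left out of the text. GENCODE M21 (GRCm38, which mm10 is built on) gave positions, lengths and GC content, and RefSeq on GRCm38.p6 gave the promoters. With 1 value per group no test was possible, so a size rule was used. FPKM keeps no depth, so precision is unknown.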

Additional observations from a re-analysis of the deposited data

How the results depend on the processing

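The count of lower entries was 340, and it was 539 with a pseudocount of 0.1, 143 with a pseudocount of 5, 589 with the groups scaled to the same sum and 1112 with a 1.5-fold rule. The count of higher entries was 754, and it was 484 with a pseudocount of 5 and 1464 with a 1.5-fold rule. Under the other settings, which changed the filter, the treatment of zeros, short RNAs or merged entries, or used upper-quartile or quantile scaling, both counts stayed within 1.5 times. Mitotic entries called lower were 10, and were 5 with a pseudocount of 5, 16 with the same sum and 23 with the 1.5-fold rule. With that rule 11 cholesterol synthesis entries and 1 replication entry were lower. The median ratio of guanylate-binding proteins was 4.08 and that of immunity-related GTPases 3.08 with a pseudocount of 5, and that of MHC class II was 3.19 with no filter on low values. Of 339 named genes, 79 were lower and 87 higher. Among these called genes, 39 lost their call with a pseudocount of 5, 6 with upper-quartile scaling, 5 with quantile normalization and 7 with the same sum. None of the called values changed sign under these settings. No paired analysis was possible because the table holds 1 value per group, and leaving out single libraries was not run for the same reason. With unknown depth, calls on genes of a few FPKM are the least secure.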

Other observations

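A set of 29 genes known from tissue-resident macrophages was drawn up after many of its values had been seen, so its direction is a description and supports nothing. Of its 20 used entries 13 were lower, 1 was higher and 19 were below 0, with a median ratio of -1.43. Fcrls, an Fc receptor-like gene of microglia, was at 30.6 FPKM untreated and 9.31 at 20 U/ml (-1.61). Ednrb, an endothelin receptor, was at 3.97 and 0.510 FPKM (-1.72), and F13a1, a transglutaminase of clotting, at 3.27 and 0.417 FPKM (-1.59). The receptor gene Fcgrt was at 135 and 75.6 FPKM (-0.83) and Folr2 at 15.3 and 9.56 FPKM (-0.63) and neither passed. Timd4 was the 1 member that was higher.

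Further cell cycle genes were also listed after the first results of the same ratio were seen. Their split by phase is thus a description and supports nothing. Of 40 further genes of the G2 and M phases, all 40 were below 0, 9 were lower and 0 higher, with a median of -0.74. Aspm, a spindle pole protein, was at 15.6 and 5.02 FPKM (-1.46), and the phosphatase Cdkn3 at 33.4 and 11.7 FPKM (-1.43). Of 35 used entries of further S phase genes 0 were lower and 0 higher, 12 were below 0 and the median was 0.16. Ung, a DNA glycosylase, was at 4.57 and 8.72 FPKM (0.80), and the histone chaperone Asf1b at 48.2 and 36.4 FPKM (-0.40).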
